A study of Mus musculus with 12 samples.

Results

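The cells described here are fibroblasts from mouse hind limb joints that carry transcripts of *Ccl7*, *Ptx3* and *Tnfaip6* together. They were selected on measured values. A cell had to have more than 500 and fewer than 5000 detected genes, a gene being detected at 1 or more unique molecular identifiers (UMIs, counted transcript molecules). It had to show at least 4 of 7 fibroblast genes (*Gsn*, *Dcn*, *Lum*, *Pdpn*, *Pdgfra*, *Fbln1* and *Serpinf1*), all of *Ccl7*, *Ptx3* and *Tnfaip6*, and at most 2 of the 6 genes *Pi16*, *Dpp4*, *Stmn4*, *Efhd1*, *Wnt2* and *Cadm3*, which mark an adventitial fibroblast. Of 21042 deposited cells, 20213 were within the gene limits, 16430 passed the fibroblast gate, and 2105 met the whole rule. These 2105 cells, called members, were 12.8% of the gated fibroblasts and 10.4% of the cells within the gene limits.

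Synovial fibroblasts line the joint cavity and fill the tissue beneath it, and in an inflamed joint they answer cytokines such as TNF and IL-1 with chemokines, IL-6, prostaglandins and matrix enzymes. *Ccl7* encodes a chemokine that draws monocytes and other leukocytes out of the blood and bone marrow. *Ptx3* encodes the long pentraxin PTX3, a secreted pattern recognition protein, and *Tnfaip6* encodes TSG-6, a hyaluronan-binding protein. TSG-6 transfers heavy chains of inter-alpha-inhibitor onto hyaluronan, and PTX3 joins such chains into a cross-linked matrix.

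The study sorted CD45-negative cells from digested hind limb joints of wild-type C57BL/6 mice and sequenced them with the 10x Genomics 3′ version 2 kit. The mice were male and 8 to 10 weeks old, and arthritis came from an intravenous injection of 100 μl of arthritogenic K/BxN serum from KRN mice. Each library was pooled from the joints of 3 animals, so single animals cannot be told apart. There were 12 libraries with 4 labels: 3 labelled rest (day 0, no serum), 3 labelled peak (days 7 to 9), 3 labelled resolving (day 15) and 3 labelled resolved (day 22). No genetic change or drug treatment separates these groups, and serum transfer is a model of the effector phase of arthritis, in which no immunisation of the recipient takes place.

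Every library had a median of 5358 UMIs per deposited cell. Such equal medians look like counts brought to a common depth. No cell barcode, read without its suffix, was found in more than 1 library. Levels are given as UMIs per 1000000 (CPM) of the summed counts of a group of cells in a library, and the 12 libraries, not the cells, are the replicates. The summed members' counts ranged from 157800 UMIs in library resolving 1 to 5244333 in peak 2. Pooled over libraries, members were deeper than other gated fibroblasts, with a median of 9585 against 5656 UMIs and of 2564 against 1869 genes per cell. Members' medians were 11024 to 12765 UMIs in rest 2, peak 2 and resolved 1 and 5315 to 7763 in the other libraries. In rest 1 members were shallower, at 5315 against 5762 UMIs. The median mitochondrial share of UMIs was 2.47% in members and 2.40% in the others.

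Within members the 3 selecting genes were not at the edge of detection in every case. The median member held 25 UMIs of *Ccl7* (1 to 406), 3 of *Ptx3* (1 to 73) and 10 of *Tnfaip6* (1 to 240). In 821 members (39.0%) at least 1 of the 3 genes rested on a lone UMI, and 1284 members had 2 or more UMIs of each. None of the 6 adventitial genes was seen in 1018 members, 1 in 808 and 2 in 279. Levels of the selecting genes are given for cells on either side of the rule, which sorts cells by these same genes. The 3881 fibroblasts with 2 of the 3 genes, pooled over libraries, held 1978 CPM *Ccl7*, 80.3 CPM *Ptx3* and 1406 CPM *Tnfaip6*, while the 821 members with a lone UMI held 2616, 205.9 and 1336 CPM. On the adventitial side, 93 cells with the 3 genes and 3 of the 6 adventitial genes held 5097 CPM *Ccl7* and 1727 CPM *Pi16*, against 4670 and 953.8 CPM in members with 2 of those 6. A further 29 cells had the 3 genes but 3 fibroblast genes, and 9 had 5000 or more detected genes.

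The selecting genes and the remaining given markers *Ccl2* and *Ifi205* are reported here as a description, with no test against the other fibroblasts. *Ccl7* (ENSMUSG00000035373, chr11:82045712-82047525, plus strand, GRCm38) averaged 4172 ± 1357 CPM in members (SD, n = 12 libraries), with a lowest library of 2319, a median of 4216 and a highest of 7261, against 972.0 ± 461.6 in the other gated fibroblasts. *Ptx3* (ENSMUSG00000027832, chr3:66219910-66225805, plus strand) averaged 755.5 ± 368.6 against 41.4 ± 17.1 CPM. *Tnfaip6* (ENSMUSG00000053475, chr2:52038009-52056686, plus strand) averaged 2541 ± 1230 against 845.5 ± 421.5 CPM. All 3 were required in members, so these contrasts follow from the choice of cells. *Ccl2* (ENSMUSG00000035385, chr11:82035571-82037453, plus strand), the monocyte chemokine encoded beside *Ccl7*, averaged 3300 ± 1151 against 879.2 ± 349.6 CPM and was higher in members in 12 of 12 libraries. *Ifi205* (ENSMUSG00000054203, chr1:174011998-174031810, minus strand), a HIN-200 gene induced by interferon, averaged 366.3 ± 253.9 against 127.6 ± 52.1 CPM and was higher in 10 of 12 libraries. Reads shared by such paralogs could have been divided or dropped in the counting.

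The genes of the gate and of the rule's last condition are given as values, which the selection itself shaped. Members averaged 13607 CPM of *Dcn*, which encodes decorin, 14743 CPM of *Gsn*, which encodes gelsolin, 2703 CPM of *Lum* (lumican) and 2243 CPM of *Serpinf1*, against 16649, 13337, 3340 and 2574 CPM in the others. *Pdgfra*, the receptor gene by which fibroblasts are commonly told, was at 130.5 against 121.3 CPM, and *Pdpn*, which encodes podoplanin, at 208.6 against 170.5 CPM. *Fbln1* was at 179.7 against 281.7 CPM and lower in members in 12 of 12 libraries. *Pi16*, a marker of adventitial fibroblasts, was at 341.0 against 541.7 CPM, *Dpp4* at 3.78 against 17.8, *Stmn4* at 5.52 against 14.8, *Efhd1* at 13.6 against 29.2, *Wnt2* at 2.12 against 12.3 and *Cadm3* at 32.4 against 49.9. With cells thinned to 2000 UMIs, and 9 members, 208 other fibroblasts and 195 endothelial cells below that depth left out, 87.4% of members, 27.6% of other gated fibroblasts and 7.78% of 1556 vascular endothelial cells held a *Ccl7* UMI. For *Ptx3* the shares were 57.7%, 4.56% and 0.900%, and for *Tnfaip6* 77.9%, 38.7% and 5.66%. The endothelial share is a reference in which free RNA and the cells' own transcripts cannot be told apart, and the median depth of all 1751 endothelial cells was 3115 UMIs before thinning.

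The libraries did not group by their labels. Barcodes carry a suffix from 1 to 12, and the suffixes step through the labels in turn: rest 1, peak 1, resolving 1, resolved 1 (suffixes 1 to 4), rest 2, peak 2, resolving 2, resolved 2 (5 to 8), rest 3, peak 3, resolving 3 and resolved 3 (9 to 12). Earlier results of these data had shown that libraries with neighbouring suffixes are alike in runs of 3 (1-3, 4-6, 7-9 and 10-12), each run holding 3 different labels. In the members' levels of 6957 genes, the most similar other library lay in the same run for 9 of 12 libraries and had the same label for 1 of 12. The 3 exceptions were suffixes 1, 2 and 3, each nearest to suffix 10 (r = 0.851, 0.859 and 0.798), so the run that serves as baseline below does not hold together in this measure. The runs are a feature of the files and not a group of the study. Whether a run holds a stage of arthritis, a batch or something else cannot be told apart here, and results are therefore given by label and by run. Whether labels and libraries are matched as deposited was not tested, and results by label hold only as far as the labels do.

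Members made up very different shares of the gated fibroblasts from run to run. In suffixes 1 to 3 the shares were 3.14% (45 of 1434 cells), 3.56% (38 of 1066) and 2.09% (20 of 957). Suffixes 4 to 6 held 36.7% (402 of 1095), 29.4% (445 of 1513) and 33.2% (461 of 1389). Those 3 libraries stood apart, and they supplied 1308 members, 62.1% of all members from 24.3% of the gated fibroblasts. Suffixes 7 to 9 held 11.9% (176 of 1477), 10.2% (242 of 2368) and 10.8% (112 of 1033), and suffixes 10 to 12 held 3.84% (74 of 1927), 3.26% (36 of 1104) and 5.06% (54 of 1067). Run means were 2.93 ± 0.759%, 33.1 ± 3.65%, 10.99 ± 0.858% and 4.05 ± 0.919% (SD, n = 3 each), and 98.3% of the variance of the shares lay between runs. An exact permutation test over all 369600 assignments of the 12 libraries gave p = 0.00012987, where the smallest possible was 6.49e-05. Because the runs were noticed in these data, that p describes the pattern and is no independent test of it.

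Grouped by label, the shares overlapped widely. Libraries labelled rest held 14.5 ± 13.5% members, peak 13.5 ± 17.0%, resolving 5.76 ± 5.37% and resolved 17.3 ± 17.0% (SD, n = 3 each). Peak minus rest was −0.933 percentage points, resolving minus rest −8.71 and resolved minus rest 2.87, with exact two-sided permutation p of 1, 0.6 and 0.7 (adjusted p = 1 for each), where 3 libraries against 3 cannot go below 0.1. Within runs that hold both labels, peak was at 3.56% against 3.14% at rest (suffixes 1 to 3) and 33.2% against 29.4% (4 to 6). Resolving was at 2.09% against 3.14% (1 to 3) and 11.9% against 10.8% (7 to 9). Resolved was at 36.7% against 29.4% (4 to 6) and 10.2% against 10.8% (7 to 9). The label accounted for 12.2% of the variance (exact p = 0.733). The sign of the peak difference turned to 6.54 without rest 2, 4.05 without peak 1 and 3.91 without peak 3, and that of the resolved difference to −2.80 without rest 1 and −6.82 without resolved 1. Depth moved with the runs: the libraries' median UMIs per member averaged 6021 in suffixes 1 to 3, 11656 in 4 to 6, 7284 in 7 to 9 and 6459 in 10 to 12. At 2000 UMIs per cell the run means fell to 1.81%, 14.3%, 5.24% and 2.75%, and the order of the runs was the same.

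**Figure D1:**
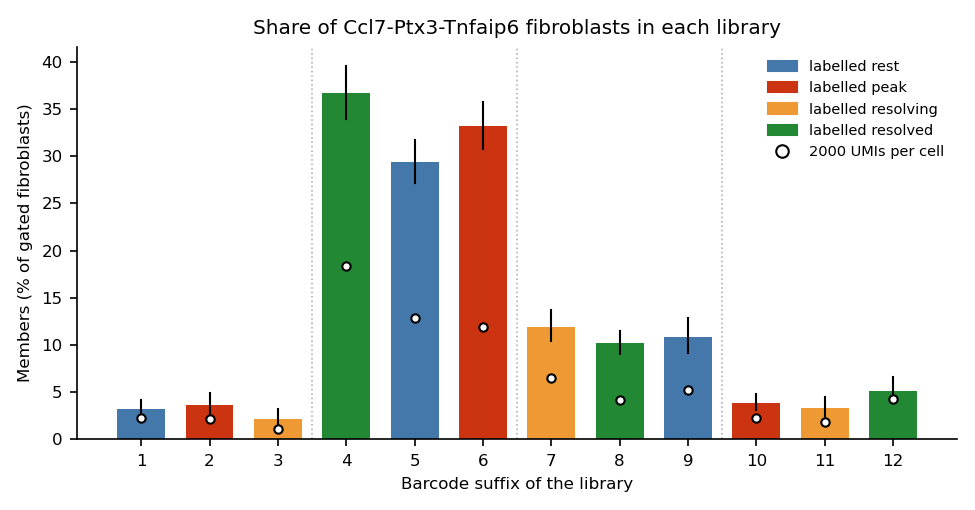
Share of members among gated fibroblasts (%) in each of the 12 libraries, in the order of the barcode suffix; bars start at 0, lines are 95% Wilson intervals, colours are labels, open circles are shares with every cell thinned to 2000 UMIs, and dotted lines part the runs of 3. The bars of suffixes 4 to 6 stand at 36.7%, 29.4% and 33.2% although each carries a different label.

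What members express beyond the selecting genes was tested against the other 14325 gated fibroblasts. This within-library comparison used all 12 libraries with the library as a block, and left out the 16 genes of the rule, *Ccl2* and *Ifi205*. A gene counts as called at an adjusted p under 0.05 in edgeR and a change of more than 1 in either direction on the log2 scale. Of 11064 genes tested, 75 were higher in members (0.678%) and 323 lower (2.92%). With scaling by total counts alone 45 were higher and 404 lower, with no filter on low counts 113 and 615, at 2000 UMIs per cell 59 and 177, and against cells with none of the 3 genes 187 and 290. The higher genes included *Il6*, the neutrophil chemokine gene *Cxcl1* and *Ptgs2*, and the lower genes included genes of the lining layer, bone, cartilage and tendon. The counts were smaller with other fibroblasts drawn to match members in UMIs per cell, a match that also left fewer cells (1789 on each side). Then 41 genes were higher, 29 of them among the 75, and 58 lower, 52 of them among the 323. The matched medians were near but not equal, at 8471 UMIs in members against 8448, and in rest 1 at 5315 against 4932. Without suffixes 4 to 6, an alternative added with the results in view, 97 genes were higher (50 of the 75) and 197 lower (158 of the 323). Suffixes 4 to 6 held 62.1% of all members, but each library weighs alike in the means. The differences of *Il6*, *Nfkb1*, *Hk2* and *C4b*, among others, were smallest in that run, as given further on. The choice of members depends on *Ccl7*, *Ptx3* and *Tnfaip6*, so genes that vary with these 3 from cell to cell were bound to differ, and the calls describe the members and do not test them.

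The cytokine gene *Il6* (ENSMUSG00000025746, chr5:30013114-30019981, plus strand), whose product drives acute-phase and B-cell responses, ranged in members from 161.5 CPM in suffix 8 to 1670 in suffix 1, and in the others from 65.7 to 223.3 CPM. Members were higher in 12 of 12 libraries, although the suffix 4 values of 207.1 against 200.2 CPM nearly met. The means were 604.0 ± 493.6 against 150.005 ± 58.6 CPM, up by 1.79 ± 0.25 on the log2 scale (estimate ± SE, adjusted p = 5.38e-05). *Cxcl1* (ENSMUSG00000029380, chr5:90891241-90893115, plus strand), a chemokine for neutrophils, ranged from 2789 to 10486 CPM in members and from 747.0 to 2793 in the others, and rose by 1.67 ± 0.16 (adjusted p = 5.86e-07, higher in 12 of 12). The lowest member library thus lay near the highest library of the other fibroblasts. *Sfrp1*, which encodes a secreted Wnt inhibitor, was at 185.9 ± 167.7 against 54.7 ± 47.9 CPM, up by 1.84 ± 0.10 (adjusted p = 2.96e-10, 12 of 12). *Ptgs2*, which encodes cyclooxygenase-2, was at 222.1 ± 111.7 against 80.6 ± 44.2 CPM, up by 1.58 ± 0.10 (adjusted p = 3.26e-09, 12 of 12).

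A further 6 genes completed the 10 largest increases with a single direction in 12 of 12 libraries and a mean of at least 20 CPM in the higher group. These were *Chl1* (log2 fold change 1.65, a cell adhesion molecule), *Fst* (1.44, follistatin, which binds activin), *Tfpi2* (1.32, a protease inhibitor), *Has2* (1.31, hyaluronan synthase), *Slc1a3* (1.16, a glutamate transporter) and *Fosl1* (1.15, an AP-1 subunit), with adjusted p between 3.02e-07 for *Fst* and 4.86e-04 for *Tfpi2*. With depth-matched fibroblasts *Tfpi2* was at 0.90, below the threshold, and without the library block *Chl1* was at 1.68 with an adjusted p of 0.058, as 1 of 15 named genes that lost their call there and are listed further down. Within the same 2 limits the largest decreases were *Coch* (−5.13 ± 0.27), *Slurp1* (−4.44), *Cytl1* (−4.12), *Bglap* (−3.62), *Angptl7* (−3.46), *Col2a1* (−3.24), *Chad* (−3.20), *Bglap2* (−3.09), *Bglap3* (−3.05) and *Clic5* (−2.996), each lower in 12 of 12 libraries. *Bglap* and its paralogs encode osteocalcin, *Col2a1* the collagen of cartilage, *Chad* a cartilage matrix protein and *Clic5* a lining marker. Reads that the 3 *Bglap* genes share could have been divided or dropped. *Coch* averaged 2.99 CPM in members, on 52 UMIs in all, against 107.6 CPM in the others.

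**Figure D2:**
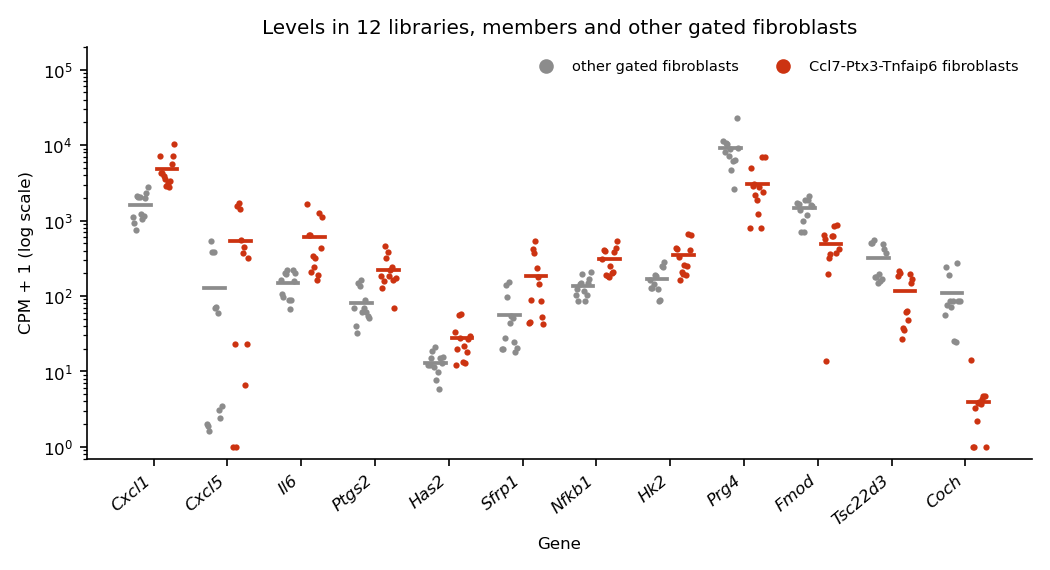
Levels of 12 genes (CPM + 1, log scale) in members (red) and other gated fibroblasts (grey), each point a library and each line the mean of 12 libraries. Member points lie above the others for *Cxcl1*, *Il6*, *Ptgs2* and *Sfrp1* within each library, and below them for *Fmod*, *Tsc22d3* and *Coch*.

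CXC chemokines were the list with the highest share of called genes upward. Of 10 tested CXC chemokine genes 6 were higher (*Cxcl1*, *Cxcl2*, *Cxcl5*, *Cxcl10*, *Cxcl13* and *Cxcl9*) and 0 lower, with a median log2 fold change of 1.16 against −0.01 over all 11064 genes. *Cxcl2*, like *Cxcl1* a ligand of CXCR2, was up by 1.88 ± 0.31 (adjusted p = 2.32e-04, higher in 11 of 12). *Cxcl5*, also a CXCR2 ligand, was at 538.4 ± 655.2 against 124.9 ± 190.6 CPM, up by 2.82 ± 0.35 (adjusted p = 1.50e-05, higher in 10 of 12), and its spread follows the runs described further on. *Cxcl12*, which holds leukocytes and stem cells near stroma, was at 1431 against 823.2 CPM (0.83), and *Cxcl14* at 1140 against 729.0 CPM (0.71), both short of the fold threshold. Of 4 tested CC chemokine genes 1 was higher, *Ccl20*, the CCR6 ligand, at 34.8 against 8.39 CPM and higher in 7 of 12 libraries, and the median was 0.47. Of the 1700 *Ccl20* UMIs in members, suffixes 4, 5 and 6 held 498, 614 and 458, and suffixes 1, 2, 3, 11 and 12 held 0. Without the library block the adjusted p of *Cxcl5* was 0.16.

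Among cytokine and growth factor genes 4 of 21 tested were higher (*Il6*, *Angptl4*, *Tnfsf11* and *Lif*) and 2 lower (*Il15* and *Gdf15*), with a median of 0.32. *Angptl4*, a lipase inhibitor, was up by 1.06 and *Tnfsf11*, which encodes the osteoclast factor RANKL, by 1.15. *Il15* was at 5.02 against 6.69 CPM (−1.07) and *Gdf15* at 0.878 against 5.28 CPM (−1.28). *Tnfsf11* and *Il15* had adjusted p of 0.18 and 0.49 without suffixes 4 to 6, *Tnfsf11* was at 0.81 in DESeq2, *Angptl4* was at 0.89 without peak 1 and against fibroblasts with 1 or 2 of the 3 genes and at 0.95 with total counts alone, and *Il15* was at −0.99 in DESeq2 and −0.97 against cells with 1 or 2 genes and had an adjusted p of 0.062 without rest 2 and 0.063 without peak 2. Of 21 cytokine receptor genes 3 were higher and 0 lower, with a median of 0.22. These were *Il1rl1* (1.55 ± 0.17), the IL-33 receptor, *Il4ra* (1.14 ± 0.10), shared by IL-4 and IL-13, and *Il1r1* (1.07 ± 0.10), the signalling receptor of IL-1, with *Il4ra* at 0.91 in depth-matched cells. *Il1r1* fell below the threshold with scaling by total counts alone (0.97), at 2000 UMIs per cell (0.98) and against fibroblasts with 1 or 2 of the 3 genes (0.99).

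NF-kB is the transcription factor through which TNF and IL-1 act on many of these genes. Of 23 tested genes of its subunits, inhibitors and targets 2 were higher and 0 lower, with a median of 0.43. *Nfkb1*, which encodes the p105 precursor, was at 306.8 ± 120.7 against 134.9 ± 40.2 CPM, up by 1.20 ± 0.15 (adjusted p = 1.68e-05, 11 of 12), and *Vcam1*, an adhesion molecule for leukocytes, was up by 1.09 ± 0.16 (adjusted p = 1.01e-04, 11 of 12) and at 0.96 without rest 1, 0.97 against cells with 1 or 2 of the 3 genes, and 0.99 without resolving 3 or with total counts alone. *Nfkbia*, the feedback inhibitor, was at 1568 against 1286 CPM (0.40). Immediate early, AP-1 and dissociation genes, which also rise when tissue is digested, gave 1 higher (*Fosl1*) and 0 lower of 36 tested, with a median of 0.19. *Fos* was at 2766 against 4457 CPM (−0.64, lower in 12 of 12) and *Jun* at 1541 against 2023 CPM (−0.32). The heat shock genes *Hspa8* (0.42), *Hsp90aa1* (0.33), *Hspb1* (0.20), *Dnajb1* (0.54) and *Hspa1a* (−0.35), with *Junb* (−0.17), were all above 1000 CPM in members and none was called.

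Hyaluronan and its binding proteins build the matrix to which TSG-6 and PTX3 belong. Apart from the selecting genes 1 of 13 tested genes was higher (*Has2*, 26.5 ± 15.3 against 12.1 ± 4.33 CPM) and 2 lower, with a median of −0.21. *Prg4*, which encodes lubricin, the joint lubricant of lining cells, was at 3082 ± 2156 against 9053 ± 5053 CPM, down by −1.59 ± 0.26 (adjusted p = 2.34e-04, lower in 11 of 12), and *Hapln1*, a cartilage link protein, was at −2.00. In the prostaglandin pathway *Ptgs2* was higher and *Ptgis* (−1.17, prostacyclin synthase), *Ptger3* (−1.21, a prostaglandin E receptor) and *Ptgs1* (−1.94, cyclooxygenase-1) were lower, of 14 tested genes with a median of −0.10. The inducible cyclooxygenase was thus higher where the constitutive enzyme was lower. *Ptgis* was at −0.93 in depth-matched cells and −0.96 against cells with 1 or 2 of the 3 genes, and *Ptger3* at −0.89 without suffixes 4 to 6 and −0.53 (adjusted p = 0.25) against cells with none.

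Acute-phase and defence genes split, with 4 higher (*Saa3*, *Hp*, *Steap4* and *Serpina3g*) and 3 lower (*Saa1*, *S100a8* and *S100a9*) of 16 tested and a median of 0.67. *Saa3*, the serum amyloid A made in inflamed tissue, was up by 1.36 ± 0.30 (higher in 9 of 12), haptoglobin (*Hp*) by 1.32 and the metalloreductase *Steap4* by 1.08. *S100a8* (−2.81) and *S100a9* (−2.9996), which encode calprotectin of neutrophils and monocytes, averaged 8.34 and 5.47 CPM in members. In DESeq2 the adjusted p was 0.053 for *Saa3*, 0.21 for *Saa1*, 0.25 for *S100a8* and 0.12 for *S100a9*. In edgeR the adjusted p of *Saa1* was 0.079 against cells with none of the 3 genes and 0.20 without suffixes 4 to 6. *Steap4* was at 0.83 at 2000 UMIs per cell, 0.98 with scaling by total counts alone and 0.995 without peak 1. The metallothioneins *Mt1* (11928 against 7106 CPM, 0.68) and *Mt2* (10166 against 5946 CPM, 0.76), which bind zinc and copper, were abundant and not called, and rose by 1.04 and 1.10 once suffixes 4 to 6 were left out.

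Complement genes gave 2 higher and 2 lower of 12 tested, with a median of 0.19. *C4b*, of the classical pathway, was at 298.1 against 108.4 CPM (1.16 ± 0.21) and *Cfi*, complement factor I, at 7.32 against 2.35 CPM (1.58). The *C4b* increase was not seen in suffixes 4 to 6, as given further on. *Clu*, clusterin, fell to −2.02 and *Cd55*, a complement inhibitor and lining marker, to −1.19. The C1 inhibitor gene *Serping1*, at 1888 against 1706 CPM, was not called (0.13). *Cd55* was at −0.91 in depth-matched cells and −0.98 without suffixes 4 to 6 and against cells with none of the 3 genes. Interferon-induced genes gave 3 higher and 0 lower of 30 tested, with a median of −0.16, and the 3 were the HIN-200 genes *Mnda* (1.12, named *Ifi211* in GENCODE M21), *Ifi204* (1.001) and *Ifi203* (1.27), paralogs of the marker *Ifi205*. *Ifi204* sat at the threshold and fell below it without any of rest 1, rest 3, peak 1, peak 3, resolving 1 or resolved 3 (0.92 to 0.97), with no filter (0.97), with total counts alone (0.90), against cells with 1 or 2 genes (0.89) and at 2000 UMIs per cell (0.83). *Ifitm3*, an antiviral membrane protein, was at 1851 against 1437 CPM (0.45).

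Matrix genes cover proteases, collagens and other secreted matrix proteins. None of 25 tested protease and inhibitor genes was called in edgeR (median 0.08), among them *Timp1*, a tissue inhibitor of metalloproteinases, at 1868 against 1241 CPM (0.70) and the gelatinase *Mmp2* at 1341 against 1303 CPM (0.08). Of 18 collagen genes 0 were higher and 2 lower (*Col2a1* and *Col15a1*, −1.12), with a median of 0.11. The main fibrillar collagens *Col1a1* (9813 against 8959 CPM, 0.13), *Col1a2* (9466 against 8423 CPM, 0.23) and *Col3a1* (8350 against 6128 CPM, 0.52) were not called. Of 26 proteoglycan and matrix protein genes 0 were higher and 5 lower (*Thbs4*, *Fmod*, *Chad*, *Omd* and *Kera*), with a median of −0.24. *Fmod*, fibromodulin of tendon and cartilage, was at 487.3 ± 254.7 against 1449 ± 458.6 CPM (−1.54 ± 0.22, adjusted p = 6.52e-05, 12 of 12), and *Thbs4* at 527.2 against 910.1 CPM (−1.04). Not called were *Sparc* (−0.25), *Bgn* (0.05), *Fn1* (−0.32), *Comp* (−0.71), *Aspn* (−0.49) and *Postn* (0.19), all above 1000 CPM. *Col15a1* was at −0.54 without suffixes 4 to 6 (adjusted p = 0.156), −0.72 at 2000 UMIs per cell, −0.98 without peak 2 and −0.94 without resolved 1 and in DESeq2, and *Thbs4* between −0.86 and −0.96 without rest 1, peak 1, resolving 1 or resolved 3 and at −0.94 against cells with 1 or 2 genes.

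Among genes of glycolysis and glucose uptake 1 of 21 was higher, *Hk2*, the inducible hexokinase, and 0 were lower, with a median of 0.32. *Hk2* was at 346.4 ± 172.0 against 167.0 ± 63.9 CPM, up by 1.08 ± 0.14 (adjusted p = 1.79e-05, higher in 12 of 12), and at 0.98 with scaling by total counts alone and 0.92 against cells with 1 or 2 genes, while *Gapdh* was at 1217 against 916.1 CPM (0.36). Among lipid genes 1 of 20 was higher, the fatty acid binding protein *Fabp5* (1.30 ± 0.23), and 0 were lower, with a median of −0.03. *Fabp5* was at 0.77 without suffixes 4 to 6 and 0.89 in DESeq2, and *Apod* was at 1551 against 1315 CPM (−0.05). Of 11 glucocorticoid response genes 0 were higher and 1 lower, with a median of 0.12. That gene was *Tsc22d3*, which encodes the glucocorticoid-induced leucine zipper, at 114.9 ± 76.0 against 322.4 ± 165.9 CPM (−1.60 ± 0.12, adjusted p = 4.80e-08, lower in 12 of 12).

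Lining markers were lower in members. Of 7 tested lining genes 5 were lower (*Prg4*, *Cd55*, *Tspan15*, *Clic5* and *Itga6*) and 0 higher, with a median of −1.59. *Tspan15*, a tetraspanin of lining cells, was at −2.29 and had an adjusted p of 0.066 without suffixes 4 to 6. Of 15 sublining and adventitial genes 1 was higher (*Sfrp1*) and 1 lower (*Col15a1*), with a median of 0.04. *Ly6a*, at 1554 against 1517 CPM (0.01), and *Ly6c1*, at 1106 against 1110 CPM (−0.18), were not called. Of 16 cell cycle genes none was called, with a median of 0.56. In edgeR 15 of the 25 protease genes and 11 of the 16 cell cycle genes had an unadjusted p under 0.05, and 11 and 8 of them an adjusted p under 0.05 with a change of 1 or less on the log2 scale. DESeq2 called 65 genes higher and 317 lower over all genes, and its count was not taken by list.

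Without the library as a block 15 named genes lost their call and 73 named genes kept their side of the threshold. Their adjusted p there were 0.38 for *Saa3*, 0.32 for *Col2a1* (−1.58) and *Thbs4*, 0.19 for *Hp*, 0.17 for *Angptl4*, 0.16 for *Cxcl5*, 0.15 for *Col15a1*, 0.13 for *Hapln1*, 0.092 for *Saa1*, 0.090 for *S100a8*, 0.087 for *S100a9*, 0.058 for *Chl1*, 0.057 for *Gdf15* and 0.052 for *Clu* and *Fabp5*. Against fibroblasts with none of the 3 genes *Timp1* (1.41), *Postn* (1.11), *Cxcl12* (1.09), *Col3a1* (1.05) and *Mt2* (1.03) were called higher and *Comp* (−1.33) lower.

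Markers of other cell types are given as the sum over each list, averaged over the 12 libraries, because pooled cells would mix runs with groups. Osteoblast markers averaged 1364 CPM in members against 4226 in the others, tenocyte markers 2742 against 5350 and Schwann cell markers 31.5 against 69.9, each lower in members in 12 of 12 libraries. Chondrocyte markers averaged 839.7 against 2314 CPM, vascular endothelial markers 47.5 against 131.8 and erythroid markers 527.5 against 1231, each lower in 11 of 12. Lymphatic markers averaged 8.61 against 91.5 CPM (lower in 10 of 12), immune markers 55.4 against 157.2 (9 of 12) and perivascular markers 275.0 against 335.4 (8 of 12). Muscle markers averaged 697.5 against 140.1 CPM although members were lower in 10 of 12 libraries, with peak 3 at 7899 CPM and the other libraries at most at 134.4. Pooled over libraries, *Cd3e*, *Ly6g* and *Gfra3* were at 0 in members and *Ptprc* (CD45, removed by the sort) at 2 UMIs. The most abundant marker of each list in members was *S100a8* (immune), *Plvap* (vascular), *Ccl21a* (lymphatic), *Acta2* (perivascular), *Spp1* (osteoblast), *Acan* (chondrocyte), *Comp* (tenocyte), *Acta1* (muscle), *S100b* (Schwann) and *Hbb-bs* (erythroid). The part of skeletal cells among the other gated fibroblasts was not tested. Scrublet, which scores likely doublets, called 56 of the 20213 cells (0.277%), and 7.08% of members against 5.95% of the others lay in its top 6%.

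Levels of a few genes, picked singly and not as a gene list, are given by the count of selecting genes. In fibroblasts with at most 2 adventitial genes and 0, 1, 2 or 3 of *Ccl7*, *Ptx3* and *Tnfaip6* (3966, 5071, 3881 and 2105 cells), *Il6* averaged 78.8, 148.6, 248.5 and 604.0 CPM. *Cxcl1* stood at 563.5, 1286, 2748 and 4901 CPM, *Ptgs2* at 28.8, 58.7, 113.9 and 222.1, and *Nfkb1* at 86.3, 123.0, 193.8 and 306.8. *Ccl2* stood at 147.0, 400.3, 1659 and 3300 CPM. *Has1*, a hyaluronan synthase, stood at 287.7, 551.8, 719.5 and 851.1 CPM, while *Prg4* had its highest mean, 12258 CPM, at 1 gene. *Col1a1* changed little, from 8220 to 9813 CPM. Because the count of selecting genes rises with depth and with any gene that varies with them, these values are a description only.

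Adventitial fibroblasts lie on the other side of the rule's last condition and are known for *Pi16* and *Dpp4*, a serine protease. Against the 1407 Pi16-Dpp4 fibroblasts (at least 3 of the 6 adventitial genes), 235 of 6404 tested genes were higher in members (3.67%) and 170 lower (2.65%). Those fibroblasts were shallower, with a median of 6000 UMIs against 9585 in members. No thinned or depth-matched fit was run here, so the part of depth in these counts was not tested. Members were higher for the collagenase *Mmp13* (294.9 ± 234.8 against 15.3 ± 11.5 CPM, 4.03 ± 0.37, adjusted p = 1.86e-07), the fibulin *Fbln7* (3.33), the membrane proteins *Tmem176b* (3.15) and *Tmem176a* (2.88), and *Tnn* (2.82), which encodes tenascin-N, each in 12 of 12 libraries. They were lower for *Myoc*, myocilin (372.4 ± 355.15 against 2368 ± 1410 CPM, −3.10 ± 0.24, adjusted p = 2.78e-08), the deubiquitinase *Uchl1* (−3.03), the focal adhesion gene *Lims2* (−2.89), the chemokine-scavenging receptor *Ackr1* (−2.83) and *Cd55* (−2.82), each in 12 of 12. *Ackr1* overlaps *Cadm3*, a gene of the rule, on the same strand, so its counts are not independent of the choice of cells.

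Against 718 lining fibroblasts, gated cells outside the members with both *Prg4* and *Clic5*, 358 of 5127 tested genes were higher in members (6.98%) and 227 lower (4.43%). The comparison cells were chosen for *Prg4* and *Clic5*, so a contrast with the lining is built in. *Fst* (59.9 ± 26.8 against 2.16 ± 2.17 CPM, 4.92 ± 0.23, adjusted p = 6.47e-11), the cytochrome *Cyp2f2* (4.81), *Cxcl14* (1140 ± 679.2 against 75.7 ± 136.2 CPM, 4.66), the eosinophil chemokine *Ccl11* (4.33) and the sodium channel gene *Scn7a* (4.23) were higher in 12 of 12 libraries. *Rab37* (0.562 ± 1.09 against 104.8 ± 35.3 CPM, −7.39 ± 0.23, adjusted p = 8.29e-13), *Slurp1* (−6.44), *F13a1*, a clotting factor subunit (13.9 ± 14.4 against 887.1 ± 136.0 CPM, −5.84), *Gchfr* (−5.83) and *Tspan15* (−5.50) were lower in 12 of 12. Lining cells were nearly as deep as members, with a median of 8826 UMIs.

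Whether members change over the course of arthritis was asked with the labels, each later label against rest, with called meaning an adjusted p under 0.05 and a log2 fold change over 0.5. Of 6957 genes tested in edgeR 0 were called at peak (0%), 0 at resolving (0%) and 0 at resolved (0%), and DESeq2 also called 0. An unadjusted p under 0.05 was reached by 42, 128 and 42 genes (0.604%, 1.84% and 0.604%). These shares are smaller than chance alone would give. The test was thus conservative, and 0 calls do not show that members stay the same. Within a label the libraries differed widely. *Il6* averaged 733.4 ± 814.5 CPM in libraries labelled rest, 715.4 ± 512.8 in peak, 468.4 ± 169.9 in resolving and 498.7 ± 545.1 in resolved (SD, n = 3). *Cxcl1* averaged 4722 ± 2182, 4274 ± 1428, 4890 ± 2138 and 5717 ± 4166 CPM. *Col1a1* averaged 11962 ± 2917, 7696 ± 6030, 9109 ± 5488 and 10485 ± 6655 CPM. Log2 differences from rest lay between −1.78 (*Cxcl5*, resolving) and 1.25 (*Mmp3*, resolving) for *Il6*, *Cxcl1*, *Cxcl2*, *Saa3*, *Cxcl5*, *Timp1*, *Mmp3* and *Col1a1*, and each had an adjusted p of 0.9998 or above. Whether the difference between members and other fibroblasts varied by label was tested as an interaction. EdgeR called 0 of 11064 genes (0%) with 174 at an unadjusted p under 0.05, DESeq2 called 0, and edgeR with no filter on low counts called 127. The 0 calls here likewise do not show the difference to be the same at each label.

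By run, members differed strongly. An F test over the 4 runs called 1880 of 6957 genes (27%), at an adjusted p under 0.05 and a largest difference over 1 on the log2 scale. Against suffixes 1 to 3, members of suffixes 4 to 6 were higher for 393 genes (5.65%) and lower for 588 (8.45%), those of 7 to 9 higher for 202 (2.9%) and lower for 254 (3.65%), and those of 10 to 12 higher for 4 (0.0575%) and lower for 8 (0.115%). With 1 library left out, the counts for 10 to 12 were 5 to 14 higher and 3 to 29 lower. All 3 comparisons share suffixes 1 to 3, so their lists are not independent. Genes of the rule and markers were among the genes fitted, and 10 of the 1880, 9 of the 588 and 4 of the 254 are theirs. Those are not read as results. The rule genes chose the members, and *Ccl2* and *Ifi205*, outside the rule, are given markers of the group. At 2000 UMIs per cell the counts for 4 to 6 were 187 and 292, those for 7 to 9 were 96 and 125, and the F test called 825. As with the shares, the runs were noticed in these data before they were tested. The rule admitted 33.1% of gated fibroblasts in suffixes 4 to 6 and 2.93% in 1 to 3. The libraries' median UMIs per member averaged 11656 and 6021 there. *Ptx3* and *Tnfaip6* were themselves called lower in 4 to 6. Genes that vary with the selecting genes could therefore differ between runs through the choice of cells. How far this shaped the genes and lists below was not tested.

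The chemokine gene *Cxcl5* was highest in members of suffixes 4 to 6. It (ENSMUSG00000029371, chr5:90759360-90761624, plus strand) stood at 1556, 1724 and 1433 CPM in suffixes 4, 5 and 6 and at 556.1, 371.3 and 447.8 CPM in 7, 8 and 9. In suffixes 1, 2 and 3 it stood at 0, 22.5 and 0 CPM, the value of suffix 2 being 6 UMIs of a lone cell, and in 10, 11 and 12 at 5.64, 22.5 and 321.4 CPM. The first 2 sets did not overlap with the last 2, and in suffix 12 a lone cell gave 98 of the 122 UMIs (80.3%). The log2 fold change of suffixes 4 to 6 over 1 to 3 was 7.49 ± 1.15 (adjusted p = 3.22e-04). At 2000 UMIs per cell 53.6% of members in 4 to 6 held a *Cxcl5* UMI, against 0.971%, 18.7% and 3.09% in 1 to 3, 7 to 9 and 10 to 12 and 0.578% of endothelial cells. *Timp1* stood at 5622, 4923 and 3860 CPM in suffixes 4, 5 and 6 and at 1476 CPM or less in the other 9 libraries (2.34 ± 0.26 over suffixes 1 to 3, adjusted p = 3.02e-05). The noncoding RNA *H19*, known for its expression in growing tissue, had 1, 0 and 2 UMIs in suffixes 1, 2 and 3, means of 399.2 ± 111.6 and 338.4 ± 19.3 CPM in 4 to 6 and 7 to 9, and 6.40 ± 5.79 CPM in 10 to 12 (adjusted p = 3.38e-07, F test).

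Lower in suffixes 4 to 6 than in 1 to 3 were *Il6*, *Icam1* and *Cxcl2*. *Il6* stood at 1670, 644.2 and 652.7 CPM in suffixes 1, 2 and 3, at 207.1, 342.6 and 242.0 in 4, 5 and 6, at 318.1, 161.5 and 188.0 in 7, 8 and 9, and at 1260, 434.4 and 1128 in 10, 11 and 12. A lone cell gave 37.2% of the UMIs in suffix 2 and 41.7% in suffix 3. Before thinning *Il6* was seen in 66.7%, 55.3% and 30.0% of members of suffixes 1, 2 and 3, the last being 6 of 20. That share was 44.9% to 56.0% in suffixes 4 to 6, whose members were deeper. With cells thinned to equal depth, 40.8% of pooled members held an *Il6* UMI in suffixes 1 to 3 and 27.2% in 4 to 6. The thinned shares were 22.6% in 7 to 9 and 47.5% in 10 to 12. In CPM no library of suffixes 4 to 9 reached the lowest of the others. The log2 fold change was −1.98 ± 0.43 for 4 to 6 (adjusted p = 0.00412) and −2.18 ± 0.43 for 7 to 9 (adjusted p = 0.00617). The adhesion molecule *Icam1*, which binds leukocyte integrins, stood at 68.4 to 75.9 CPM in suffixes 4 to 6, 115.2 to 136.6 in 7 to 9, 262.2 to 373.9 in 1 to 3 and 442.6 to 655.4 in 10 to 12, with no overlap between runs (−2.21 ± 0.18 for 4 to 6, adjusted p = 2.48e-06). *Cxcl2* averaged 1052 ± 363.1, 302.0 ± 130.4, 233.3 ± 73.3 and 671.9 ± 244.9 CPM in the 4 runs in order of suffix. *Cxcl1* averaged 5247 ± 1725, 3434 ± 535.6, 3100 ± 282.7 and 7822 ± 2440 CPM, with an adjusted p of 5.78e-04 in the F test and 0.055 for 4 to 6 against 1 to 3. *Ccl2*, a marker of the group given as values, averaged 3493, 2624, 2442 and 4642 CPM.

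**Figure D3:**
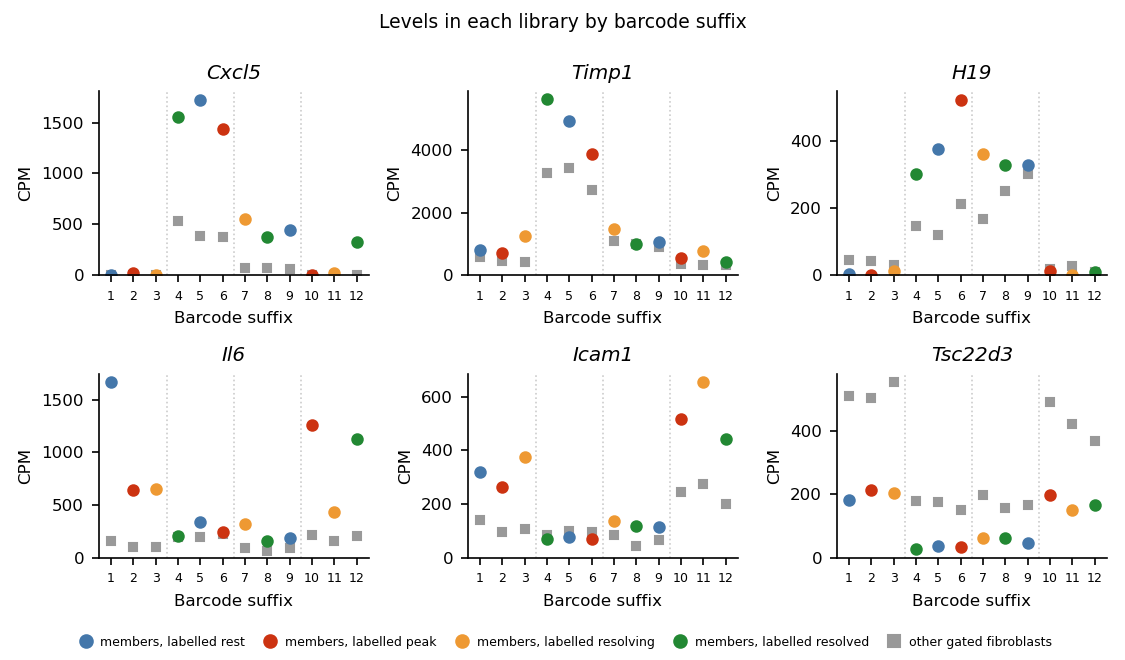
Levels (CPM) of 6 genes in each library by barcode suffix, circles for members coloured by label and squares for the other gated fibroblasts; dotted lines part the runs. *Cxcl5* and *Timp1* are highest in suffixes 4 to 6 in members and in the other fibroblasts, while *Icam1* and *Tsc22d3* are lowest there in members.

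Further genes with the smallest p of the F test follow. *Vit* (130.0, 10.2, 20.3 and 138.6 CPM in the 4 runs), the lipid transporter *Abca8a* (83.9, 3.00, 12.1 and 70.9), the scavenger receptor *Scara5* (142.6, 15.2, 59.8 and 125.9) and *Ace* (114.4, 17.2, 51.9 and 120.1), which encodes angiotensin-converting enzyme, were lowest in suffixes 4 to 6. So were *Igfbp6* (1738, 241.9, 1312 and 1972 CPM), which binds insulin-like growth factors, the protease inhibitor *Cst3* (5168, 1243, 2066 and 8789), the taurine transporter *Slc6a6* (158.1, 46.4, 75.7 and 239.1) and *Tsc22d3* (199.5, 32.4, 56.4 and 171.1). The log2 fold changes of suffixes 4 to 6 over 1 to 3 for these 8 genes ran from −1.82 for *Slc6a6* to −4.86 for *Abca8a*, and their adjusted p in the F test were all at or below 4.36e-07, the value of *Slc6a6*. *Tnfaip2*, a TNF-induced gene, was highest in suffixes 10 to 12 at 427.9 ± 27.5 CPM against 110.5 ± 32.8 in 1 to 3 (2.09 ± 0.20, adjusted p = 2.39e-04), and *Angptl7* stood at 25.8, 11.9, 58.8 and 669.9 CPM. *Saa3* averaged 178.4 ± 244.4, 1010 ± 254.8, 1074 ± 570.2 and 152.1 ± 258.5 CPM and was not called by the F test (adjusted p = 0.091), and a lone cell gave 24 of 24 UMIs in suffix 1, 78 of 122 in suffix 2, 1468 of 2471 in suffix 8 and 169 of 171 in suffix 12. The stromelysin *Mmp3* averaged 101.8 ± 43.8, 535.0 ± 47.8, 510.7 ± 216.7 and 862.3 ± 1044 CPM (2.33 ± 0.71 for 4 to 6, adjusted p = 0.028), a call lost with at least 2 UMIs of each selecting gene (adjusted p = 0.21) and without any of rest 1, rest 2, resolving 1 or resolved 1 (0.05003 to 0.12).

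By gene list, the called NF-kB, interferon-induced and complement genes were all lower in members of suffixes 4 to 6, and those of the cell cycle all higher, beside a median of 0.01 over all 6957 genes. Of all these genes 5.65% were called higher and 8.45% lower in suffixes 4 to 6, and the F test called 27%. NF-kB genes gave 0 higher and 8 lower of 21 (median −0.70), among them *Nfkb1*, *Icam1* and *Tnfaip3*, the gene of the feedback inhibitor A20. Interferon-induced genes gave 0 higher and 8 lower of 19 (median −1.19), complement genes 0 higher and 8 lower of 11 (−1.28), immediate early genes 0 higher and 14 lower of 36 (−0.66) and glucocorticoid response genes 0 higher and 5 lower of 10 (−1.26). Acute-phase genes gave 2 higher and 4 lower of 12 (−0.70), hyaluronan genes 1 and 5 of 11 (−0.36), sublining genes 1 and 8 of 15 (−1.66) and lipid genes 1 and 7 of 18 (−0.79). Chondrocyte and osteoblast markers were high in suffixes 1 and 2 and not in 3: the chondrocyte list summed to 3609, 3937 and 95.1 CPM in members of suffixes 1, 2 and 3 and the osteoblast list to 5631, 2480 and 31.7 CPM. *Cfd*, a complement and fat cell gene among the lower ones, averaged 437.3 ± 699.1 CPM in 1 to 3, with 1244 CPM in suffix 2. Cytokine genes gave 4 higher (*Angptl4*, *Inhba*, *Tnfsf11* and *Ereg*) and 4 lower (*Il6*, *Csf1*, *Bmp2* and *Fgf2*) of 15 (median 0.63), CXC chemokines 2 and 1 of 10 (−0.20), CC chemokines 2 and 2 of 4 (3.73) and receptors 1 and 2 of 17 (0.11). The receptor counts were close to the shares over all genes. Prostaglandin genes gave 2 and 2 of 9 (0.36), and lining genes 0 and 0 of 3 (−0.36), although the F test called 3 of these 3.

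Glycolysis genes leaned upward in the same libraries, and matrix lists held called genes in both directions. Over all genes 5.65% were higher and 8.45% lower in suffixes 4 to 6, and 2.9% and 3.65% in 7 to 9. Glycolysis genes gave 9 higher and 1 lower of 19 in suffixes 4 to 6 (median 1.27), the higher including *Gapdh*, *Pkm*, *Eno1* and *Tpi1* and the lower gene being *Hk2*, and 1 higher and 0 lower in 7 to 9. Collagen genes gave 4 higher and 3 lower of 17 (median 0.19) in 4 to 6 and 5 higher and 1 lower in 7 to 9 (0.81). Matrix protein genes gave 8 higher and 7 lower of 26 (0.50) in 4 to 6 and 10 higher and 5 lower in 7 to 9 (0.83), with *Postn*, *Lox*, *Fbln2* and *Thbs4* higher in both. Proteases and inhibitors gave 3 higher (*Timp1*, *Mmp3* and *Adam12*) and 3 lower of 23 (−0.03). *Col1a1* averaged 5952 ± 2830, 12636 ± 1706, 15398 ± 1027 and 5267 ± 3203 CPM, up by 1.01 in 4 to 6 (adjusted p = 0.043) and 1.34 in 7 to 9 (adjusted p = 0.022). Those calls were lost without likely doublets (0.099 and 0.055), without peak 1 (0.12 and 0.071) and without resolving 1 (0.14 and 0.069), for 4 to 6 also without rest 2, peak 2 or resolved 1 (0.069, 0.12 and 0.070), and for 7 to 9 without resolved 2 (0.058).

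Of 16 cell cycle genes 12 were higher and 0 lower in 4 to 6 (median 2.87), 4 higher and 1 lower in 7 to 9 (2.40), and 0 were called in 10 to 12, and the F test called 16 of 16. Over all genes 5.65% were higher and 8.45% lower in 4 to 6, 2.9% and 3.65% in 7 to 9, and the F test called 27%. *Mki67*, the gene of the proliferation antigen Ki-67, had a UMI in 93 of 402, 61 of 445 and 97 of 461 members of suffixes 4, 5 and 6 and in 10 of 176, 27 of 242 and 5 of 112 of suffixes 7, 8 and 9. It had a UMI in 1 of 45, 0 of 38 and 0 of 20 members of suffixes 1, 2 and 3 and in 1 of 74, 0 of 36 and 0 of 54 of suffixes 10, 11 and 12. At 2000 UMIs per cell the shares were 0.971%, 5.12%, 2.49% and 0 of 162 cells in the 4 runs. The 95% Wilson interval over pooled cells was 0.172% to 5.30% in suffixes 1 to 3 and reached 2.32% in 10 to 12. Such intervals cover counting error only and not the spread between libraries, so they do not decide whether runs differ. Of endothelial cells 1.29% held a UMI. The other gated fibroblasts had *Mki67* at 36.2, 13.04 and 36.5 CPM in suffixes 4, 5 and 6 and at 25.4 CPM or less elsewhere.

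Few members, 164 in suffixes 10 to 12 and 103 in 1 to 3, stood behind the last comparison, and few calls there do not show the runs to be alike. Genes higher in 10 to 12 included *Angptl7*, *Rcan1* and *Tnfaip2*, and the 8 lower were *Cgref1*, *Col9a1*, *Col9a2*, *Col9a3*, *Dnajb1*, *Hapln1*, *Lect1* and *Serpinh1*, of which *Col9a1*, *Col9a2*, *Col9a3*, *Hapln1* and *Lect1* are cartilage genes. They are named because the counts are small, after their values were seen. The chondrocyte list summed to 3609 CPM in members of rest 1 and 3937 in peak 1 and to at most 518.8 CPM in the other 10 libraries, and its part in these 8 calls was not tested. With at least 2 UMIs of each selecting gene 1 was higher and 0 lower, and without likely doublets 2 were lower. DESeq2 called 34 higher and 31 lower, and edgeR with no filter on low counts 157 and 99.

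How far members differ from their neighbours also depended on the run. This interaction was added after the data were seen, and edgeR called 436 of 11064 genes (3.94%) at an adjusted p under 0.05. The member-minus-other log2 difference of *Il6* was 2.997 in suffixes 1 to 3, 0.44 in 4 to 6, 1.55 in 7 to 9 and 2.32 in 10 to 12 (adjusted p = 7.2e-05). It was 2.51, 0.82, 1.56 and 1.81 for *Cxcl1*, 1.89, 0.31, 1.24 and 1.48 for *Nfkb1* and 1.503, −0.27, 1.10 and 1.28 for *Icam1*. The difference was likewise highest in 1 to 3 and lowest in 4 to 6 for *Hk2* (1.55, 0.25, 1.34 and 1.26), *C4b* (1.91, −0.15, 1.16 and 1.75) and *Mt1* (1.26, −0.43, 0.92 and 0.93). *Tsc22d3* was lower in members in every run and most so in 4 to 6 (−1.34, −2.26, −1.48 and −1.19), and *Fabp5* was raised most there (0.36, 2.17, 1.09 and 0.07). The increases of *Ptgs2* (1.78, 1.47, 1.69 and 1.44, adjusted p = 0.758) and *Sfrp1* (1.43, 1.90, 2.04 and 1.71, adjusted p = 0.561) and the decrease of *Prg4* (adjusted p = 0.740) were not called as different between runs. Depth moved with this pattern, since members of suffixes 4 to 6 had medians of 12765, 11024 and 11179 UMIs against 4246, 4732 and 4554 in the other fibroblasts, while in suffix 1 members had 5315 against 5762. The part of depth in the interaction was not tested.

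Promoters were read for the selecting genes and for *Ccl2* and *Il6*, since AP-1 and NF-kB are the factors best known to act on such genes. Of 5 genes, 3 matched the RefSeq table of GRCm38.p6, which holds 250 bases before and 50 after a gene's start, and *Ccl7* and *Ccl2* did not. The motifs searched on both strands were AP-1 as TGANTCA and NF-kB as GGNNTTTCC, shown in capitals. Of 32851 promoters 7.81% held the AP-1 letters, 5.82% the NF-kB letters and 0.487% both (160 promoters). *Il6* held AP-1 letters 249 bases and NF-kB letters 43 bases before the start of the RefSeq table, *Tnfaip6* held AP-1 letters 142 bases before that start, and *Ptx3* (chr3:66219637-66219936, plus strand) held neither in this window. The sequences of *Tnfaip6* (chr2:52037863-52038162, plus strand) and *Il6* (chr5:30012864-30013163, plus strand) are shown because they hold these letters. For *Tnfaip6* and *Ptx3* the RefSeq start is not the GENCODE start printed further up, so distances from the latter differ. A match is a description of letters and not of a bound site.
Tnfaip6: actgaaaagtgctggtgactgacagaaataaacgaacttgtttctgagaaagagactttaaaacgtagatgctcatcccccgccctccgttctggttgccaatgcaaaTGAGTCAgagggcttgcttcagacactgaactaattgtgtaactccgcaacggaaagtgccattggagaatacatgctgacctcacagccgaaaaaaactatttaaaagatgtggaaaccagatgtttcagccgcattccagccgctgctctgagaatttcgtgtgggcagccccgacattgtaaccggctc
Il6: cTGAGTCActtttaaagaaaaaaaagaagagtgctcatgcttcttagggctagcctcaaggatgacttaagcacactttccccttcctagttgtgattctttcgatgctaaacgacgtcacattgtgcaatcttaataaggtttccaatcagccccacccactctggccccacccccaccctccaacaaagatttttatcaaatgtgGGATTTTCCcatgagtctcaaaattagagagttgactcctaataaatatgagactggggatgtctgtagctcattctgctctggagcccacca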

How the data were processed

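The deposited files hold UMI counts per gene and cell for 12 libraries, which the authors made with Cell Ranger on mm10, and the equal medians per library look like a shared depth. The 12 libraries held 1277 to 2817 deposited cells. Cells were read as deposited and sorted by the rule given at the opening. Members and gene lists were chosen with earlier results of these data known.

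UMIs were summed per library and group of cells where at least 10 cells were present, and 16 rule genes with *Ccl2* and *Ifi205* were kept out of the naming of genes. Sums were fitted in edgeR 4.0.16 (R 4.3.3; TMM factors, filterByExpr, quasi-likelihood F test, Benjamini-Hochberg), with the library as a block for members against other cells. Each SE is the estimate divided by the square root of F. Shares were compared by exact permutation over libraries. Lining cells were gated cells outside the members with *Prg4* and *Clic5*. Endothelial cells had at least 3 of 6 endothelial genes and at most 3 fibroblast genes. Named genes were the 10 largest called changes each way with a mean of at least 20 CPM in the higher group and a single direction in all 12 libraries (5 each way against Pi16-Dpp4 and lining cells), the 12 smallest p of the F test, the 3 most abundant called genes per list and direction, list genes above 1000 CPM, and 9 genes chosen for the labels and runs. Clone-named, haemoglobin, immunoglobulin and mitochondrial genes were not named by size. *Mki67*, *Has1*, genes called in lists across runs and genes of the interaction were named after their values were seen. Results of 20 gene lists and 10 marker lists are given.

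Alternatives were DESeq2 1.42.0, RLE or total-count scaling, no filter, no block, thinning to 2000 UMIs (seed 1), other fibroblasts matched in UMIs (10 bins), 2 or more UMIs of each selecting gene, other choices of comparison cells, no top 6% of Scrublet scores (scanpy 1.11.5), at most 10% mitochondrial UMIs, the study's UMI limits, a replicate or run block, the 6 libraries compared alone, and leaving out each library. Leaving out suffixes 4 to 6 and the interaction by run were added after seeing the data. The fits were also run on simulated data, whose outcome is not given and supports no result here. Other tools were Python 3.11.15, numpy 2.4.6, pandas 2.3.3, scipy 1.17.1 and matplotlib 3.10.9. Of 27998 gene identifiers 27645 were in GENCODE M21, which gave positions. Cells outside the gene limits were left out, and reads were not used here.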

Additional observations from a re-analysis of the deposited data

How the results depend on the processing

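Alternatives gave 4036 values for 222 results. For named genes, 2018 values kept their side of the threshold, 64 were weaker and 19 stronger, and with 1 library left out these were 1560, 33 and 3, with 0 reversed. The cause of a change was not tested unless fewer genes or libraries made it.

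Against other fibroblasts, 75 higher genes became 45 with total counts, 113 with no filter, 41 with UMI-matched cells and 187 against cells with none of the 3 genes. The 323 lower genes became 615 with no filter, 177 thinned, 58 matched and 197 without suffixes 4 to 6. With no filter the counts were 808 higher and 367 lower against Pi16-Dpp4 cells and 1058 and 694 against lining cells. Leaving out 1 library gave 69 to 78 higher and 292 to 360 lower.

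For suffixes 4 to 6, 393 higher became 763 with no filter and 187 thinned, and 588 lower became 292 thinned. For 7 to 9, 202 higher became 406 with no filter and 96 thinned, and 254 lower became 125 thinned, 167 with 2 UMIs of each gene, and 168 (without rest 1) to 240 (without resolving 1). For 10 to 12, 4 higher became 8 with RLE, 157 with no filter, 34 in DESeq2, 7 thinned, 8 at 10% mitochondrial UMIs, 1 with 2 UMIs, and 5 to 14 with 1 library left out. The 8 lower became 13 with RLE, 16 with total counts, 99 with no filter, 31 in DESeq2, 2 without doublets, 14 at 10% mitochondrial UMIs, 0 with 2 UMIs, and 3 to 29 with 1 library left out. The F test called 2976 with no filter and 825 thinned. The interaction by label called 127 with no filter and 436 by run.

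Peak minus rest ran from −10.8 (without peak 2) to 6.54 (without rest 2) percentage points, turning positive also without peak 1 (4.05) and peak 3 (3.91). Resolved minus rest ran from −6.82 (without resolved 1) to 10.3 (without rest 2), negative also without rest 1 (−2.80). With a replicate block the share differences were −0.933, −8.71 and 2.87 (exact p of 1, 0.25 and 1) and label counts were 0. Depth limits what the smallest library sum of members, 157800 UMIs, can show.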
